A study of Mus musculus with 12 samples.

Results

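Messenger RNA levels of 10 enzymes of serine synthesis, the folate cycle and the methionine cycle were examined in mouse 4T1 cells. The members were taken by mouse symbol: Phgdh, Psat1, Psph, Shmt1, Shmt2, Mthfd1, Mthfd1l, Mthfd2, Mat2a and Ahcy. Each was found, as 10 of 30803 Ensembl identifiers in the table of GSH and WT libraries and as 10 of 17558 symbols in the table of Cas9 and Ctrl libraries. In the GSH libraries 8 of the enzymes were higher than in the WT libraries, by 8.48% to 33.8% of the WT mean, and Mat2a was 19.7% lower. Over all 12283 genes tested, 37% passed the same test, 20.6% as higher in GSH and 16.4% as lower. The remaining enzyme, Shmt2, did not pass the test. Among the 8 higher enzymes, the call of Shmt1 held under 3 of 15 other settings of the test and that of Psph under 8. Each other call held under 13. Between the 3 Cas9 libraries and 1 Ctrl library none of the 10 passed, and 0 of all 11407 genes tested there did.

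These enzymes form a connected set of reactions. Cells make serine from the glycolytic intermediate 3-phosphoglycerate, split serine into glycine and a folate-bound carbon unit, and spend such units on purine and thymidylate synthesis and on the remethylation of homocysteine to methionine. The folate steps run in parallel in the cytosol and in mitochondria, and the methionine cycle turns methionine into S-adenosylmethionine, the methyl donor for DNA, RNA and protein methylation. In many tumour cells serine synthesis and the mitochondrial folate enzymes are expressed at high levels, and several of the genes are known targets of the transcription factor ATF4.

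4T1 is a mammary carcinoma line from a BALB/c mouse, and the labels give all samples as this line, grown in culture. The labels name 4 genotype groups, GSH, WT, Cas9 and Ctrl, with triplicate samples, and the stated design pairs GSH with WT, and Cas9 with Ctrl. They do not expand GSH, do not name a gene targeted with Cas9, and do not say whether a line is a single clone or which alleles the groups share. Values of 3 GSH, 3 WT, 3 Cas9 and 1 Ctrl library (Ctrl 3) were used, and 2 Ctrl samples were not analysed here. Whether the replicates are separate cultures is not given in the labels, so a p-value here measures only how far these libraries spread, which may be technical.

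Levels are given in FPKM (read fragments divided by gene length and by the library total), a unit inferred from the values. Totals of reads assigned to genes, recovered from the steps between FPKM values, were 18530367 to 30167002 for GSH and 20295962 to 21952599 for WT. For Cas9 and Ctrl 3 the smallest whole numbers that fit summed to 31524351 to 33908524 and to 37289074. The true totals of these libraries may be higher. A member had 471 to 10339 reads in a GSH or WT library, for a counting error of 0.983% to 4.61%. All 6 epithelial markers were at 1 FPKM or more in every GSH and WT library, and their sum was 1624 to 1682 FPKM in GSH and 1527 to 1600 FPKM in WT. Within that list Krt8 was at 435 to 463 FPKM in GSH and 343 to 377 FPKM in WT, while Epcam was at 282 to 290 FPKM in GSH and 346 to 365 FPKM in WT and Cdh1 at 203 to 210 FPKM in GSH and 220 to 231 FPKM in WT. The 4 fibroblast markers summed to 13.0 to 26.3 FPKM in GSH and 2.99 to 14.5 FPKM in WT, with Col1a1, a collagen gene, at 9.36, 19.5 and 8.84 FPKM in GSH 1, 2 and 3 and 0.59, 3.39 and 10.4 FPKM in WT 1, 2 and 3. Endothelial markers summed to at most 0.273 FPKM in GSH and 0.397 FPKM in WT. Transcripts of secretory proteins (odorant-binding and major urinary proteins) were uneven, with sums of 18.9, 431 and 159 FPKM in GSH 1, 2 and 3 and 1.65, 6.62 and 286 FPKM in WT 1, 2 and 3. Genes of the mitochondrial genome took 5.72% to 6.10% of reads in GSH and 8.17% to 8.48% in WT. The part of these differences in the results was not tested, apart from the fits named beside each result.

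The enzymes of serine synthesis were all higher in the GSH libraries. Differences were tested with limma on log2(FPKM + 1) over 12283 genes with a mean of 1 FPKM or more, with Benjamini-Hochberg adjustment at 0.05, and fold changes are on that scale, which understates the change of low genes. All 10 enzymes passed the filter on low values.

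Phgdh (ENSMUSG00000053398), the dehydrogenase that commits 3-phosphoglycerate to serine synthesis, was the most abundant of the 10 in every GSH and WT library. It had 132, 143 and 138 FPKM in GSH 1, 2 and 3, against 100, 109 and 117 FPKM in WT 1, 2 and 3. The lowest GSH library thus stood above the highest WT library, and the log2 fold change was 0.34 (SE 0.06, limma adjusted p = 0.00689). Psat1 (ENSMUSG00000024640), the aminotransferase of the next step, had 62.6, 61.0 and 60.0 FPKM in GSH against 49.7, 51.3 and 51.5 FPKM in WT. The 3 values of each group lay close together, with SDs of 1.35 FPKM in GSH and 1.02 FPKM in WT, and the log2 fold change was 0.26 (SE 0.03, limma adjusted p = 0.00222).

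Psph (ENSMUSG00000029446), the phosphatase that releases free serine, was the least abundant of the 10 in every GSH and WT library. It had 6.49, 6.14 and 6.68 FPKM in GSH against 5.31, 5.36 and 5.84 FPKM in WT. The groups did not overlap, and GSH 2 and WT 3 were the nearest libraries of the 2 groups. Its log2 fold change of 0.19 (SE 0.05) passed the test with an adjusted p of 0.0209 by limma. The call ended without GSH 1 (limma adjusted p = 0.0587), GSH 3 (0.0674), WT 1 (0.0692) or WT 2 (0.0630), and without the filter on low values (0.0592). An exon of Cct6a, a chaperonin subunit gene at up to 129 FPKM, overlaps Psph on the opposite strand, and strand use in counting is not stated in the sources used here. Reads of the overlap cannot be told apart.

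**Figure D1:**
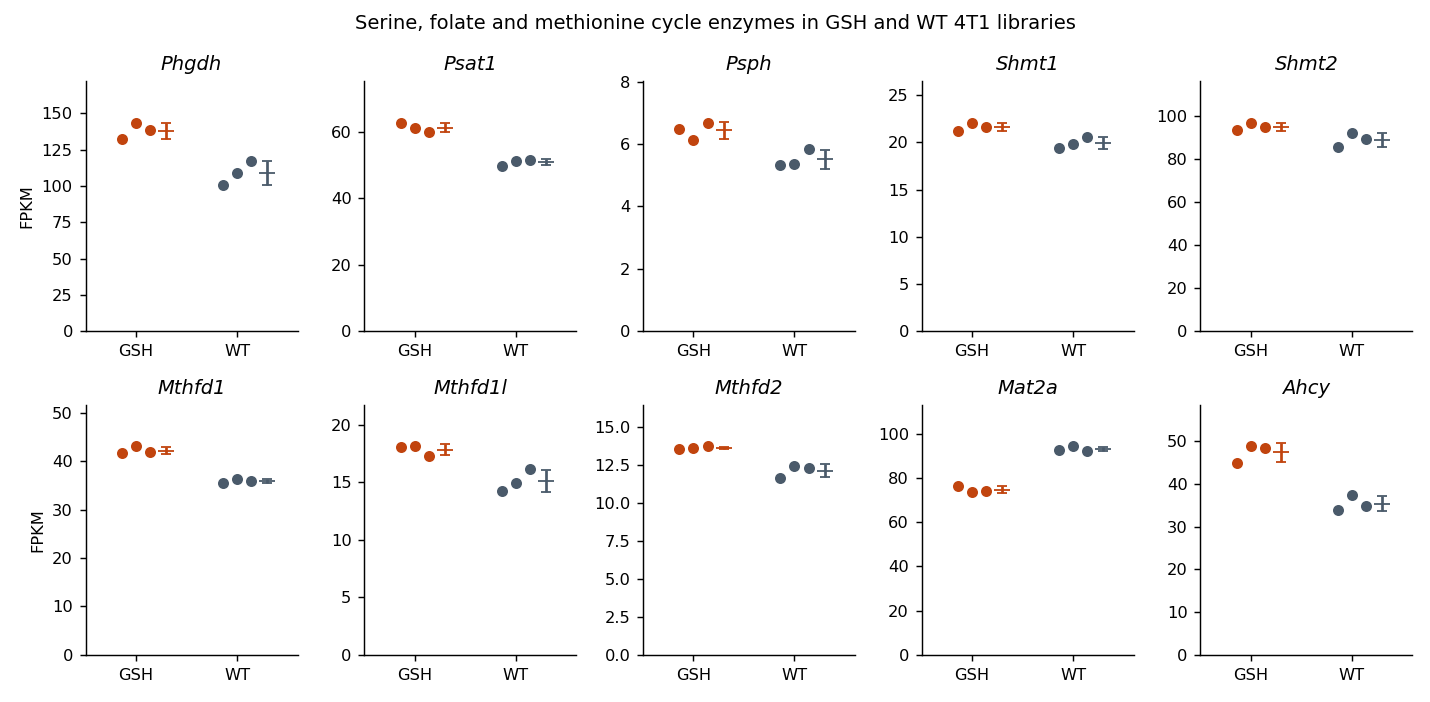
FPKM of each of the 10 enzymes in the 3 GSH and 3 WT libraries (points) with the group mean and SD, 1 panel per gene with its own axis. GSH libraries lie above WT libraries without overlap for 9 genes and below them for Mat2a.

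Phgdh has close copies in the mouse genome to which reads were also assigned, and their effect on its count was not tested. Of 17 annotated pseudogenes with at least 90% identity to its transcript over 300 bases or more, 12 are in the GSH and WT table. Their FPKM summed to 67.4, 75.4 and 73.1 in GSH and 60.2, 56.1 and 60.1 in WT. In reads, they held 23.9% to 24.7% of all reads of Phgdh and its copies in GSH and 24.1% to 27.0% in WT. Gm9347, the copy with the highest level, averaged 32.6 FPKM in GSH and 27.2 FPKM in WT, with a log2 fold change of 0.26 (limma adjusted p = 0.0161). The share between Phgdh and its copies is therefore uncertain. The sum over the copies was higher in every GSH library than in any WT library. Ahcy has 2 such pseudogenes, Mat2a 1 and Psat1 1, all with group means below 2 FPKM, and the other members have none.

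At the step that splits serine, the cytosolic and the mitochondrial enzyme differed little between groups. Shmt1 (ENSMUSG00000020534), the cytosolic serine hydroxymethyltransferase, had 21.2, 22.1 and 21.6 FPKM in GSH against 19.4, 19.8 and 20.6 FPKM in WT. The groups did not overlap, and the log2 fold change was 0.11 (SE 0.03, limma adjusted p = 0.0356). This call ended under 12 of 15 other settings, among them relative log expression scaling (adjusted p = 0.0770) and rescaling without mitochondrial genes (adjusted p = 0.10), and without any single library other than WT 3 (adjusted p = 0.0515 to 0.109). An exon of Smcr8, a protein-coding gene at up to 8.44 FPKM, overlaps Shmt1 on the opposite strand, and reads of that overlap cannot be told apart either.

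Shmt2 (ENSMUSG00000025403), the mitochondrial form, had 93.3, 96.9 and 94.8 FPKM in GSH against 85.6, 91.9 and 89.4 FPKM in WT. All GSH values lay above all WT values, by a log2 difference of 0.09 (95% interval 0.01 to 0.18), and it was the only member that did not pass (limma adjusted p = 0.0718, unadjusted p = 0.0302). With voom on recovered reads it passed (adjusted p = 0.0478). The ratio of Shmt2 to Shmt1 within a library averaged 4.39 ± 0.00766 in GSH and 4.46 ± 0.159 in WT (SD, n = 3 each), and the ranges overlapped.

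The folate enzymes of both compartments were higher in GSH. Mthfd1 (ENSMUSG00000021048), the trifunctional cytosolic enzyme that interconverts formyl, methenyl and methylene folates, had 41.7, 43.0 and 41.8 FPKM in GSH against 35.4, 36.3 and 35.9 FPKM in WT. The gap between groups was several times the spread within either, and the log2 fold change was 0.23 (SE 0.03, limma adjusted p = 0.00228). Mthfd2 (ENSMUSG00000005667), the mitochondrial methylene folate dehydrogenase and cyclohydrolase, had 13.5, 13.6 and 13.7 FPKM in GSH against 11.6, 12.4 and 12.3 FPKM in WT. Its GSH values were almost equal, its WT values were all lower, and the log2 fold change was 0.16 (SE 0.03, limma adjusted p = 0.0127).

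Mthfd1l (ENSMUSG00000040675), which releases formate from formyl folate in mitochondria, had 18.1, 18.1 and 17.3 FPKM in GSH against 14.2, 14.9 and 16.2 FPKM in WT. WT 3 came nearest to the GSH libraries, and the log2 fold change was 0.23 (SE 0.05, limma adjusted p = 0.0139). The ratio of Mthfd1l to Mthfd1 was 0.423 ± 0.00957 in GSH and 0.421 ± 0.0259 in WT, with overlapping ranges. The ratio of Mthfd2 to Mthfd1 was 0.324, 0.316 and 0.328 in GSH and 0.328, 0.342 and 0.343 in WT. All GSH ratios lay below all WT ratios before rounding, by a margin far smaller than the spread within a group. With 3 libraries in each group, an exact two-sided permutation test cannot go below p = 0.10, and the ratios were not tested.

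The methionine cycle enzymes moved in opposite directions. Mat2a (ENSMUSG00000053907), the catalytic subunit of the methionine adenosyltransferase that makes S-adenosylmethionine outside the liver, fell to 76.4, 73.8 and 74.1 FPKM in GSH, against 92.7, 94.3 and 92.3 FPKM in WT. The groups were far apart beside SDs of 1.43 FPKM in GSH and 1.03 FPKM in WT, and the log2 fold change was -0.31 (SE 0.03, limma adjusted p = 0.00173). It lay below Shmt2 in every GSH library and above Shmt2 in every WT library. Ahcy (ENSMUSG00000027597), which hydrolyses S-adenosylhomocysteine, the product left after methyl transfer, had 44.9, 48.7 and 48.4 FPKM in GSH against 33.9, 37.5 and 34.8 FPKM in WT.

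Ahcy had the highest fold change of the 10, with a log2 value of 0.41 (SE 0.05, limma adjusted p = 0.00254). In WT its level could not be separated from that of Mthfd1, whose values lay within the range of Ahcy, and in GSH it lay above Mthfd1 in every library. Within a library the ratio of Mat2a to Ahcy was 1.70, 1.51 and 1.53 in GSH, against 2.73, 2.52 and 2.65 in WT. The mean ratio was 1.58 ± 0.104 in GSH and 2.63 ± 0.110 in WT (SD, n = 3 each), and this ratio does not depend on the library total.

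**Figure D2:**
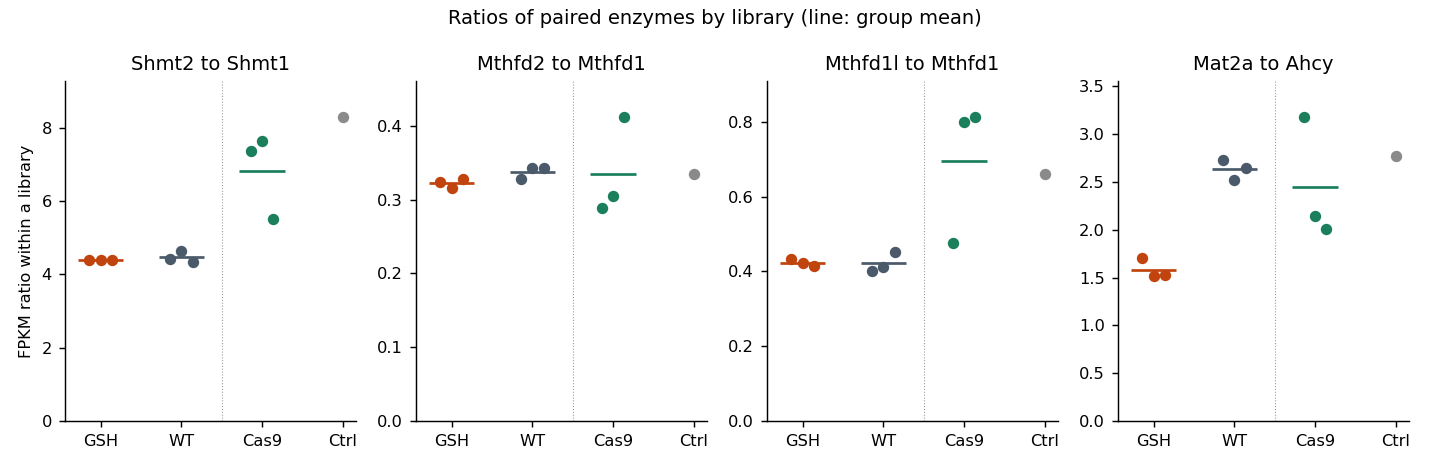
Ratios of FPKM within each library for 4 pairs of enzymes, with GSH left of WT and Cas9 left of Ctrl and points for libraries. The Mat2a to Ahcy ratio is 1.51 to 1.70 in GSH and 2.52 to 2.73 in WT, and ratios should not be compared across the dotted line, where gene lengths used by the authors may differ.

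Mat2a messenger RNA carries known regulatory elements after its stop codon, hairpins that the RNA methyltransferase METTL16 binds and methylates and through which intron splicing and RNA stability respond to S-adenosylmethionine. They are shown because Mat2a was the only member that fell, and their part in that was not tested. The hairpin core was searched as TACAGANAA, in the sense strand of 1 transcript per gene. The transcript of Mat2a (ENSMUST00000205335, 3387 bases, minus strand of chromosome 6, GRCm38) held 6 matches, 724 to 2021 bases after the stop codon. Each is given as 28 bases of DNA letters, with the match in capitals:
Mat2a site at chr6:72434234-72434261: gcgtaggtTACAGAGAAgccttcaagct
Mat2a site at chr6:72433450-72433477: ttgtgataTACAGAGAAgtcacagggca
Mat2a site at chr6:72433271-72433298: ggtgtagcTACAGAGAAaccagcttcct
Mat2a site at chr6:72433156-72433183: ggcgtaagTACAGAGAAgccatcacctc
Mat2a site at chr6:72433045-72433072: aggtgtccTACAGAAAAaccttgggtta
Mat2a site at chr6:72432937-72432964: tggtgtggTACAGAGAAgccagcttgtt

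At least 1 match was found in 10.0% of 21901 protein-coding genes, and 1 gene of them, Mat2a itself, had 6 or more. Among the other members Mthfd1l had 2 matches and Psat1 had 1. Mettl16 itself averaged 5.38 ± 0.0880 FPKM in GSH and 4.45 ± 0.139 FPKM in WT (SD, n = 3 each), with a log2 fold change of 0.23 (SE 0.04, limma adjusted p = 0.0051). A match is a description of letters, and binding was not measured.

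Across the 10 enzymes, 8 were called higher, 1 lower and 1 not called, while 20.6% of all tested genes were called higher and 16.4% lower. Within the 8, the calls of Shmt1 and Psph held under 3 and 8 of 15 other settings. All 10 had groups that did not overlap, as did 52.5% of all tested genes, and 9 of them had the GSH libraries on top, as did 29% of all tested genes. The median log2 fold change was 0.21 over the 10 and 0.02 over all tested genes, whose median absolute value was 0.13. The choice of members was made with earlier results of these data known, so these counts are a description.

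Every enzyme kept its direction under all 15 other settings. As the groups of no member overlapped, a fit that left out libraries could not reverse a direction. Such fits show only how the size of a difference moved. GSH 2, GSH 3 and WT 3 had the high secretory transcripts, and within these 3 libraries the log2 differences were 0.08 to 0.47 for the 9 enzymes that were higher and -0.32 for Mat2a. Within GSH 1, WT 1 and WT 2 they were 0.07 to 0.34 and -0.29. Psph had a log2 difference of 0.11 in the high set and 0.24 in the low set, and Mthfd1l had 0.12 in the high set and 0.29 in the low set. Each set has a single library in 1 group, and 0 and 4 genes of the whole table were called within the high and the low set, so no member passed there.

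**Figure D3:**
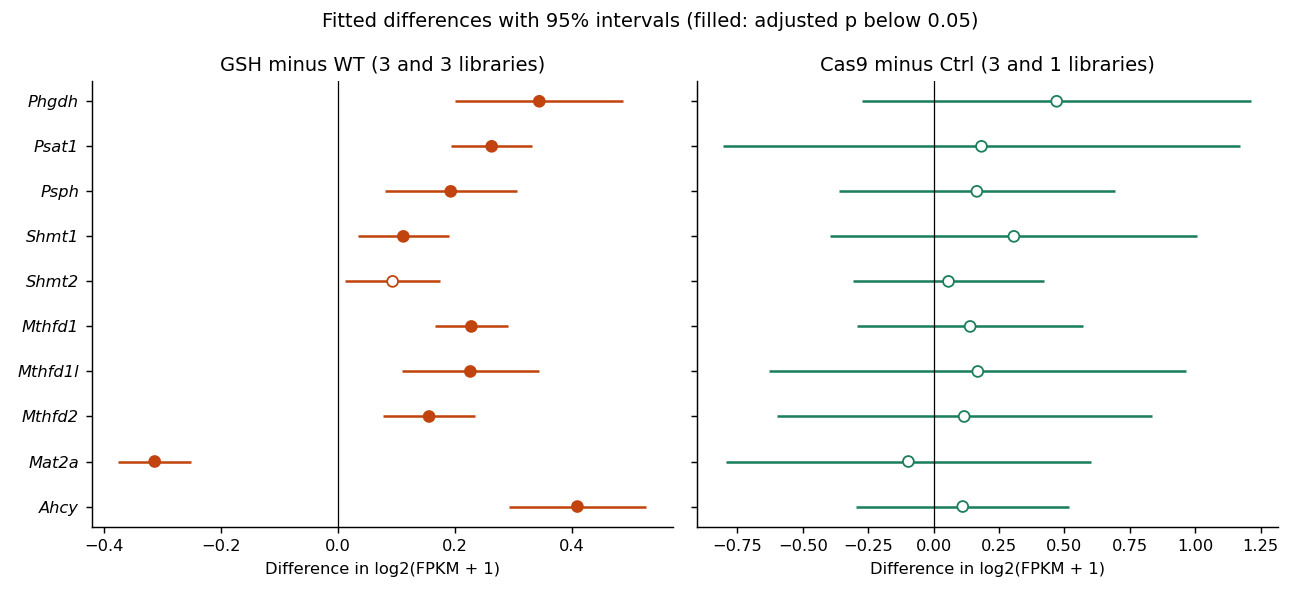
Log2 fold changes of the 10 enzymes with 95% limma intervals, GSH against WT in 1 panel and Cas9 against Ctrl in the other, with separate scales. The GSH against WT values are -0.31 for Mat2a and 0.09 to 0.41 for the others, and every Cas9 against Ctrl interval includes 0.

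The promoters of the members are shown as a description, and their part in the differences between groups was not tested. GC content ran from 40.8% (Shmt2) to 67.6% (Mat2a) in member windows, with a median of 52.4% over all windows. The shares over all windows below are not matched for it. RefSeq start sites on GRCm38.p6 gave 11 windows for the 10 genes, Psat1 having a pair of start sites, and 250 bases before each start were searched on both strands. For 9 of the 11 windows the bases after the start were found in a GENCODE transcript of the gene. CCAAT, the pentamer bound by the factor NF-Y, occurred in windows of 8 genes (Ahcy, Mat2a, Mthfd1, Mthfd2, Phgdh, Psat1, Psph and Shmt1), or 8 of 11 windows, and in 33.8% of 32851 windows of the same length over all genes. The last 100 bases before the start are given for 4 genes, with CCAAT or its reverse complement ATTGG in capitals, all on the minus strand and read in the direction of transcription. They are chr3:98339970-98340069 for Phgdh, chr19:15925060-15925159 for Psat1, chr6:83317605-83317704 for Mthfd2 and chr6:72439557-72439656 for Mat2a:
Phgdh promoter: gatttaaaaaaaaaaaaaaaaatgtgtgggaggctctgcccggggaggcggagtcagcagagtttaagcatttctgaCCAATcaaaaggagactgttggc
Psat1 promoter: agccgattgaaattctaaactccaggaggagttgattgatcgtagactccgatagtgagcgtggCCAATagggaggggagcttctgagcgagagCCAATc
Mthfd2 promoter: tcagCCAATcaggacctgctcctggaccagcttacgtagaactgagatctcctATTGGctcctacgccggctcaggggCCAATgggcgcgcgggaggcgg
Mat2a promoter: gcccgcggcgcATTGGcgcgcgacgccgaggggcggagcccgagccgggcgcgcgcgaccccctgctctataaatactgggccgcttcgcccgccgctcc

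Mthfd2 had 3 CCAAT matches in the bases shown, Psat1 2, and Phgdh and Mat2a 1 each. Of these genes, Mthfd2, Psat1 and Phgdh were higher in GSH and Mat2a was lower. All windows printed hold a match. In the last 100 bases of windows not printed, Mthfd1, Psph and Shmt1 had matches as well. Ahcy, Mthfd1l, Shmt2 and the other Psat1 start had none there. GGGCGG, the GC box, occurred in windows of 7 genes and in 32.7% of all windows. The NRF1 site occurred in 1 member window, that of Shmt2, and in 0.782% of all windows. TGATGNAA, the core of the response element that ATF4 binds with C/EBP factors, CACGTG, the E-box, and TGACGTCA, the cyclic AMP response element, had no match in these windows, against 3.45%, 6.02% and 1.55% of all windows. GGGCGG and the other motifs can overlap each other, and no match says only that these letters are not in this window.

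Other genes of the pathway were counted in 6 lists. For comparison, 20.6% of all tested genes were called higher in GSH and 16.4% lower. Of 20 other folate genes 14 were tested, of which 4 were higher in GSH, 3 lower and 7 not called, with a median log2 fold change of -0.04. Without GSH 3 or without WT 1 the number higher was 2, and after rescaling without mitochondrial genes the number lower was 5. Sfxn1, a mitochondrial serine carrier, averaged 10.4 ± 0.246 FPKM in GSH and 8.66 ± 0.187 FPKM in WT (log2 fold change 0.23, limma adjusted p = 0.00356). Gcsh and Amt, both parts of the glycine cleavage system, differed in direction, with log2 fold changes of 0.21 for Gcsh (adjusted p = 0.00555) and -0.42 for Amt (adjusted p = 0.00799) by limma. Amt averaged 3.02 ± 0.405 FPKM in GSH and 4.37 ± 0.139 FPKM in WT. Mtfmt, which formylates the mitochondrial initiator methionyl-tRNA, fell by 0.17 on the log2 scale (limma adjusted p = 0.0154).

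Close relatives and partner subunits of the members did not share their direction in each case. Mthfd2l, the mitochondrial relative of Mthfd2, averaged 3.62 ± 0.169 FPKM in GSH and 4.24 ± 0.184 FPKM in WT, a log2 fold change of -0.18 (limma adjusted p = 0.0249), and this call ended without the filter on low values (adjusted p = 0.0724) and without GSH 2 (0.0628), GSH 3 (0.0573), WT 1 (0.0763) or WT 3 (0.0738), and with a term for libraries with high secretory transcripts (0.0543). Mat2b, the regulatory subunit that pairs with the Mat2a product, averaged 8.18 ± 0.202 FPKM in GSH and 8.16 ± 0.478 FPKM in WT, with overlapping ranges (limma adjusted p = 0.936). Mat1a, the liver form, averaged 0.00637 FPKM in GSH and 0.0181 FPKM in WT and was not tested. Ahcyl1 averaged 32.1 ± 0.756 FPKM in GSH and 30.1 ± 1.00 FPKM in WT and Ahcyl2 1.63 ± 0.0386 FPKM in GSH and 1.45 ± 0.0223 FPKM in WT, and neither passed (limma adjusted p = 0.0842 and 0.154).

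Of 21 other genes of the methionine cycle, salvage and polyamine synthesis 17 were tested, and 7 were higher in GSH, 0 lower and 10 not called, with a median of 0.09. Besides Mettl16, the genes with the smallest p were Adi1 and Enoph1, enzymes of methionine salvage, and Adk, which phosphorylates the adenosine that Ahcy releases. Adi1 averaged 10.2 ± 0.323 FPKM in GSH and 8.08 ± 0.243 FPKM in WT (log2 fold change 0.30, limma adjusted p = 0.00259). Enoph1 had a log2 fold change of 0.29 (limma adjusted p = 0.00886) and Adk one of 0.22 (limma adjusted p = 0.0089).

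Among serine transporters and serine-consuming enzymes every call was in the lower direction. Of 15 listed 13 were tested, and 0 were higher, 5 lower and 8 not called, with a median of -0.10. Without WT 1 the number lower was 3. Slc38a2, a carrier of small neutral amino acids, averaged 56.1 ± 0.973 FPKM in GSH and 64.8 ± 1.49 FPKM in WT (log2 fold change -0.20, limma adjusted p = 0.00382). Serinc1 and Serinc3, named as serine incorporators, fell by 0.24 and 0.16 on the log2 scale (limma adjusted p = 0.00292 and 0.00867). Slc1a5, a neutral amino acid exchanger, averaged 65.7 ± 0.796 FPKM in GSH and 71.0 ± 0.707 FPKM in WT (log2 fold change -0.11, limma adjusted p = 0.0142), and its call ended without WT 1 (adjusted p = 0.0539).

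The list of purine and thymidylate synthesis enzymes had the highest share of calls among these 6 lists. All 15 genes listed were tested, and 12 were higher in GSH, 1 lower (Pfas) and 2 not called, with a median of 0.20. Without WT 1 the number higher was 7. Atic and Gart, the enzymes that take formyl groups from folate in purine synthesis, had log2 fold changes of 0.31 (limma adjusted p = 0.00178) and 0.25 (limma adjusted p = 0.00249). Atic averaged 40.2 ± 0.850 FPKM in GSH and 32.3 ± 0.617 FPKM in WT, and Gart 28.5 ± 0.0765 FPKM in GSH and 23.7 ± 0.747 FPKM in WT. Paics averaged 71.8 ± 1.86 FPKM in GSH and 59.1 ± 1.55 FPKM in WT, and Adsl 15.2 ± 0.243 FPKM in GSH and 12.8 ± 0.465 FPKM in WT. Both encode other enzymes of purine synthesis and passed as well (log2 fold change 0.28 and 0.23, limma adjusted p = 0.00244 and 0.00424).

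Of 16 ATF4 and amino acid response genes outside the pathway 15 were tested, and 8 were higher, 1 lower (Slc3a2) and 6 not called, with a median of 0.16. The number lower was 0 without GSH 3 or without WT 1, and 2 without GSH 1 or after rescaling without mitochondrial genes. Eif4ebp1, an inhibitor of cap-dependent translation, averaged 28.9 ± 0.634 FPKM in GSH and 22.7 ± 0.643 FPKM in WT (log2 fold change 0.33, limma adjusted p = 0.00178). The other genes with the smallest p were the tRNA synthetases Gars, Nars and Sars, with log2 fold changes of 0.29, 0.24 and 0.28 (limma adjusted p = 0.00215, 0.00215 and 0.00338). Of 14 S-adenosylmethionine-dependent methyltransferases, all tested, 3 were higher, 1 lower and 10 not called, with a median of -0.0039. As 37% of all tested genes were called, 20.6% as higher, this list held no excess of calls. Prmt1 and Prmt5, arginine methyltransferases, and Nsun2, an RNA cytosine methyltransferase, rose by 0.29, 0.27 and 0.23 on the log2 scale (limma adjusted p = 0.00555, 0.0032 and 0.00201), and Pcmt1, a protein repair methyltransferase, fell by 0.14 (limma adjusted p = 0.0444). The Pcmt1 call ended without any single library other than WT 2 (adjusted p = 0.0536 to 0.128), without the filter on low values (0.107) and with the secretory term (0.0905). The number of methyltransferases lower was then 0, and it was 2 with relative log expression scaling or with voom and 3 after rescaling without mitochondrial genes.

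**Figure D4:**
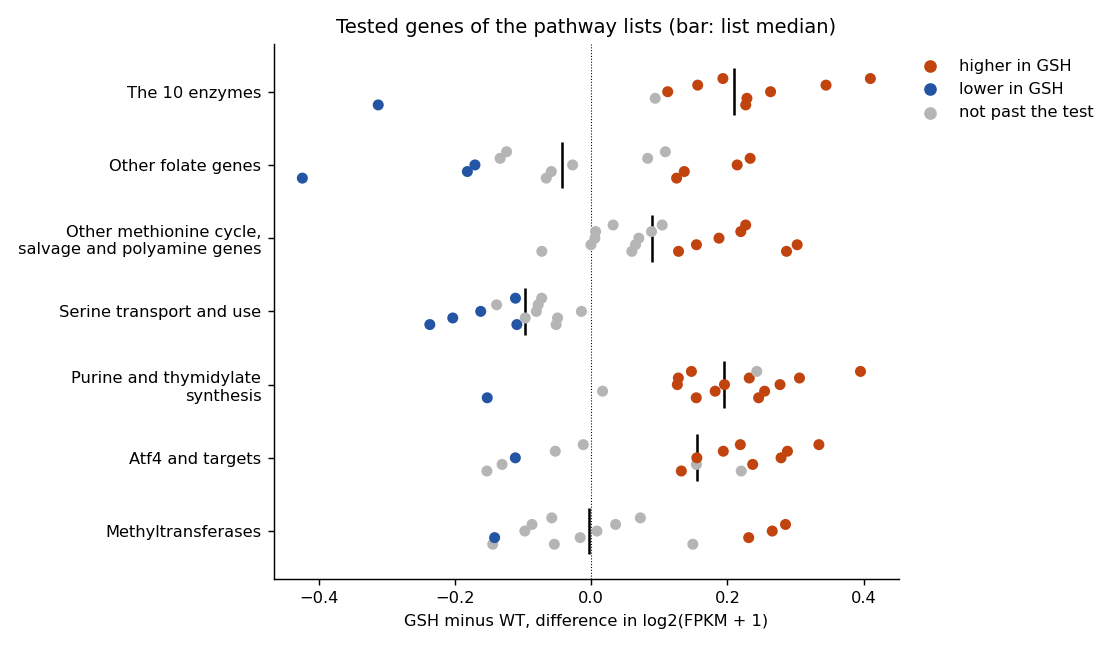
Log2 differences of GSH minus WT for the tested genes of the 10 enzymes and of the 6 other lists (points, coloured by call, with a bar at each list's median). Under the main test the enzymes show 8 higher and 1 lower and the nucleotide list 12 higher and 1 lower, while the serine transport list shows 0 higher and 5 lower. Among all tested genes 20.6% were called higher and 16.4% lower.

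Between Cas9 and Ctrl libraries none of the 10 enzymes passed the test. The Ctrl group had 1 library, Ctrl 3, so the fit had 2 residual degrees of freedom and took its spread from the Cas9 libraries, and the lone Ctrl library is assumed to vary like them. Of 11407 tested genes limma called 0, or 0%, and 1.84% had an unadjusted p under 0.05, among them none of the 10. The adjusted p was 1.00 for each enzyme, and the median log2 fold change over the 10 was 0.15, against -0.01 over all tested genes. In the 6 other lists limma called 0 genes as well, and 2 genes of the ATF4 list had an unadjusted p under 0.05.

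Phgdh had 71.8, 75.1 and 111 FPKM in Cas9 1, 2 and 3, against 60.6 FPKM in Ctrl 3, a log2 difference of 0.47 (95% interval -0.27 to 1.21). Psat1 had 14.2, 16.6 and 27.5 FPKM in Cas9 1, 2 and 3, against 16.3 FPKM in Ctrl 3. In both genes Cas9 3 stood far above the other libraries, and in Psat1 the other Cas9 libraries lay on either side of Ctrl 3. Psph had 6.21, 5.26 and 7.05 FPKM in the Cas9 libraries, against 5.37 FPKM in Ctrl 3.

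Shmt1 had 6.52, 6.53 and 9.80 FPKM in the Cas9 libraries, against 5.86 FPKM in Ctrl 3, and Shmt2 had 47.9, 49.8 and 54.0 FPKM, against 48.5 FPKM in Ctrl 3. Mthfd1 had 18.6, 15.8 and 18.8 FPKM in the Cas9 libraries, against 16.0 FPKM in Ctrl 3. Mthfd1l had 8.86, 12.6 and 15.2 FPKM, against 10.5 FPKM in Ctrl 3, and Mthfd2 had 5.39, 4.82 and 7.72 FPKM, against 5.34 FPKM in Ctrl 3. Of these folate enzymes only Shmt1 had all Cas9 libraries on 1 side of Ctrl 3.

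Mat2a had 64.6, 42.3 and 46.5 FPKM in Cas9 1, 2 and 3, against 53.8 FPKM in Ctrl 3, a log2 difference of -0.10 (95% interval -0.79 to 0.60). Ahcy had 20.4, 19.7 and 23.2 FPKM in the Cas9 libraries, against 19.4 FPKM in Ctrl 3. Mat2a was the only member whose highest Cas9 value was in Cas9 1, and the other 9 were highest in Cas9 3. All Cas9 libraries lay above Ctrl 3 for Phgdh, Shmt1 and Ahcy, 3 of 10, and 20.1% of all tested genes did so. The other 7 overlapped, while 42.6% of all tested genes did not overlap in either direction. The ratio of Mat2a to Ahcy was 2.44 ± 0.638 in Cas9 (SD, n = 3) and 2.78 in Ctrl 3, with Ctrl 3 inside the Cas9 range. The ratio of Shmt2 to Shmt1 was 6.83 ± 1.15 in Cas9 (SD, n = 3), with every Cas9 library below the 8.27 of Ctrl 3.

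Markers of other cell types were present in these libraries, which the labels give as cultured 4T1 cells. The 8 leukocyte markers summed to 2279 to 5529 FPKM in the Cas9 libraries and 4734 FPKM in Ctrl 3. Lyz2, a myeloid lysozyme gene, was at 3048, 2001 and 1035 FPKM in Cas9 1, 2 and 3 and 2536 FPKM in Ctrl 3. Ptprc, the pan-leukocyte marker, was at 18.5, 21.0 and 15.9 FPKM in Cas9 1, 2 and 3 and 21.1 FPKM in Ctrl 3. Epcam, an epithelial marker, was at 181, 226 and 318 FPKM in Cas9 1, 2 and 3 and 189 FPKM in Ctrl 3, and Krt14, a basal keratin, at 35.8, 70.1 and 360 FPKM in the Cas9 libraries and 74.7 FPKM in Ctrl 3. Cas9 3, the library in which 9 of the 10 enzymes were highest, thus had the highest Epcam and Krt14 and the lowest Lyz2 and Ptprc.

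Fibroblast markers summed to 319 to 1038 FPKM in Cas9 and 651 FPKM in Ctrl 3, and endothelial markers to 44.3 to 102.5 FPKM in Cas9 and 53.6 FPKM in Ctrl 3. In the other table the leukocyte markers summed to 20.7 to 30.7 FPKM in GSH and 23.0 to 25.4 FPKM in WT. The part of these markers in the spread of the enzymes was not tested, and in such bulk samples fewer cells of a type and less RNA per cell cannot be told apart. The tables were normalised separately, so no enzyme level was compared between them, and their marker sums are set side by side only as a description.

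**Figure D5:**
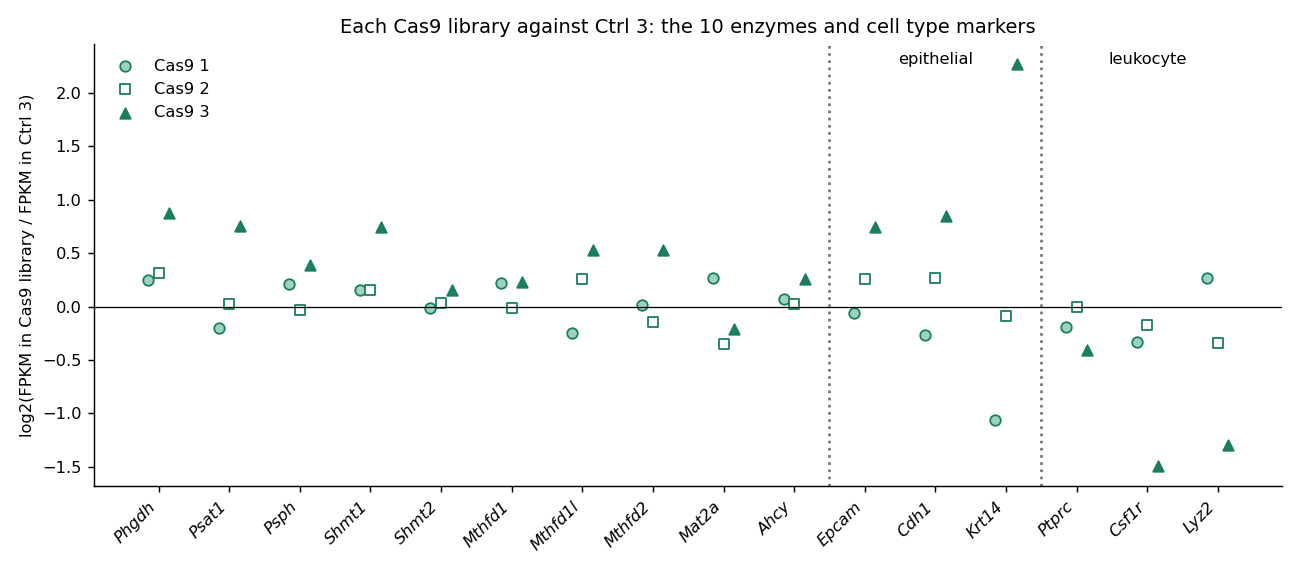
Log2 ratio of FPKM in each Cas9 library (circle, square and triangle for Cas9 1, 2 and 3) to FPKM in Ctrl 3, for the 10 enzymes, 3 epithelial and 3 leukocyte markers, with a line at 0 for no difference. The triangle is highest for every enzyme other than Mat2a and for the 3 epithelial markers shown, and lowest for the 3 leukocyte markers shown.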

How the data were processed

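RNA of 4T1 cells was extracted with Trizol and made into libraries with the NEBNext Ultra kit, per the labels' protocols. Bowtie2 (2.2.3), HISAT2 (2), HTSeq (0.6.0) and the build mm8 are named in the submitters' processing notes, with no role stated, and strand use in counting is not given in the sources used here. The deposited values carry no unit and were taken as FPKM, which the authors computed for the GSH and WT libraries and for the Cas9 and Ctrl libraries in separate tables, so tests were made within a table. Symbols were matched for 30190 of 30803 Ensembl identifiers. Since FPKM moves in steps of 1 read, whole reads were recovered for 100% of the GSH and WT genes above 0 and for 99.99% of 17018 such genes of the other table, taking values within 0.01 read of a whole number, and voom on these reads called 5178 genes for GSH against WT. Reads of a gene in the second table may be a multiple of the smallest whole numbers that fit, so they are not quoted per gene.

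The main test was limma 3.58.1 (R 4.3.3), lmFit and eBayes with a trend on log2(FPKM + 1), two-sided, group as the only term, over genes with a mean of 1 FPKM or more, with Benjamini-Hochberg adjustment at 0.05. It was also run on simulated data with known changes. Sample titles gave the group and the replicate number. Pseudogene copies were found with blastn 2.17.0 against GENCODE M21, promoters came from RefSeq (GRCm38.p6), and Mat2a coordinates are those of GRCm38, since no sequence of the notes' build was used. Alternatives changed the pseudocount (0.1), the filter, the scaling, the libraries, the model (voom on recovered reads), a replicate block and a term for libraries with more than 100 FPKM of secretory transcripts. Named genes are the members, the up to 4 genes of each list with the smallest p in GSH against WT, and close relatives or partner subunits of members (Mthfd2l, Mat1a, Mat2b, Ahcyl1 and Ahcyl2). A few genes outside this rule, Pfas, Slc3a2 and the cell type markers, are named to give the values a result turns on. The members and lists were chosen with earlier results of these data known.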

Additional observations from a re-analysis of the deposited data

How the results depend on the processing

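For GSH against WT, 4547 genes were called, of which 55.7% were higher in GSH. The share was 49.2% of 4435 genes under relative log expression scaling and 42.9% of 4405 genes after rescaling without mitochondrial genes, which the Cas9 and Ctrl table does not list, so that setting was not run there. Leaving out each library in turn gave 2998 to 3671 calls, the lowest without WT 1, and 0 and 4 genes were called within the libraries with high and with low secretory transcripts, where a group keeps 1 library (3435 and 3794 genes had an unadjusted p under 0.05). The members Phgdh, Psat1, Mthfd1, Mthfd1l, Mthfd2, Mat2a and Ahcy lost their call within these sets alone. Mat2b, with a log2 difference near 0, was -0.012, -0.028, -0.0043 and -0.034 under relative log expression scaling, rescaling without mitochondrial genes, the secretory term and within the high set, and -0.039 to 0.030 as libraries were left out. For Cas9 against Ctrl, where 0 genes were called under every setting run, leaving out each Cas9 library gave log2 differences of -0.084 to 0.37 for Psat1, -0.055 to 0.24 for Mthfd2 and -0.27 to 0.026 for Mat2a. The cause of these changes was not tested. With the replicate number as a block, 3867 genes were called for GSH against WT and Shmt1 was not (adjusted p = 0.0532). Deviations from the group mean correlated at 0.48, -0.11 and 0.21 between same-numbered GSH and WT libraries. GSH 1 correlated best with WT 1 and GSH 3 with WT 3, while GSH 2 correlated best with WT 3 (0.39). Deviations within so few libraries depend on each other, so they cannot show whether the numbers pair the samples. No paired analysis was possible because Cas9 and Ctrl share 1 number, for that comparison.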
